A study of Mus musculus with 12 samples.

Results

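Mouse rods that had received a control short hairpin RNA were set against rods that had received the expression vector pcDNA4c as control, 3 libraries of each. These 6 libraries are all the control libraries among the 12 of the series, and every gene of the deposited gene table entered, 52962 in all, of which 20267 had enough counts to be tested. By their labels both constructs are controls for those that silence or express Csnk2a1. The comparison describes how these control groups differ from each other. Rods are the photoreceptors of dim-light vision. Retinas were electroporated, the electroporated areas were taken at postnatal day 8 and dissociated with papain, and whole GFP-positive rods were picked one by one with a micromanipulator, 50 to 100 cells for each library. The groups were shRNA Control, shRNA mCsnk2a1 (an shRNA against mouse Csnk2a1), pcDNA4c mCsnk2a1 (mouse Csnk2a1 in pcDNA4c) and pcDNA4c Control. Strain, sex, the promoters of the plasmids, the sequence of the control hairpin and the number of animals behind a library are not stated by the labels. Each treatment has 3 independent RNA samples, which the labels do not tie to separate animals, so the spread behind each p-value may be technical in part.

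A short hairpin RNA is made in the cell from a plasmid, cut to a short duplex and loaded into Argonaute proteins, while an expression vector without an insert makes no such RNA. The developing retina also holds microglia, the resident macrophages of the nervous tissue, which engulf dying neurons and debris. Macrophages that engulf cells fill with lysosomes, secrete osteopontin and export cholesterol on apolipoprotein E.

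Of the 14 genes that differed between the control groups, 5 are short structural or predicted RNA genes that exist in identical copies, so these are described first. Gm24245 (ENSMUSG00000087943, GRCm38 chr4:139338304-139338360, plus strand), Gm23935 (ENSMUSG00000076258, chr16:11144125-11144181, plus strand) and Gm24270 (ENSMUSG00000076281, chr9:56223715-56223771, minus strand) are annotated as miRNA genes of 57 bases. Rn7s1 (ENSMUSG00000099021) and Rn7s2 (ENSMUSG00000099250), both on chromosome 12, are genes for 7SL RNA, the RNA core of the signal recognition particle that brings ribosomes to the endoplasmic reticulum. The 3 predicted genes are shown 5′ to 3′ from the GENCODE M21 transcripts, in lower case throughout, because they share 1 sequence.
Gm24245: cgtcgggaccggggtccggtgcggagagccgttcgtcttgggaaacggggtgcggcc
Gm23935: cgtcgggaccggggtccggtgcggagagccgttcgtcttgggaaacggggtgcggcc
Gm24270: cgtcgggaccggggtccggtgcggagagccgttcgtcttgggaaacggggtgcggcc

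The 57 bases were the same letter for letter in the 3 predicted genes, 73.7% of them G or C, and Rn7s1 and Rn7s2 were also identical to each other. The deposited counts of the copies were also equal in every library, so reads of 1 RNA were divided evenly among them and each set is 1 measurement.

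Over all genes, 14 of 20267 passed an adjusted p of 0.05 in edgeR's quasi-likelihood test with Benjamini-Hochberg adjustment (0.0691% of genes). In shRNA Control 3 were higher (0.0148%) and 11 were lower (0.0543%). An unadjusted p under 0.05 was reached by 854 genes (4.21%), 292 higher (1.44%) and 562 lower (2.77%). The groups did not overlap for 1039 genes on the higher side (5.13%) and for 1734 on the lower side (8.56%). More genes thus lay on the lower side, although the median log2 difference of all genes was 0, a value that depends on the scaling. A total of 52 genes, 39 of them protein-coding, had at least 10 counts in each pcDNA4c Control library and none in shRNA Control, against 14 genes, 6 of them protein-coding, in the opposite direction.

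**Figure D1:**
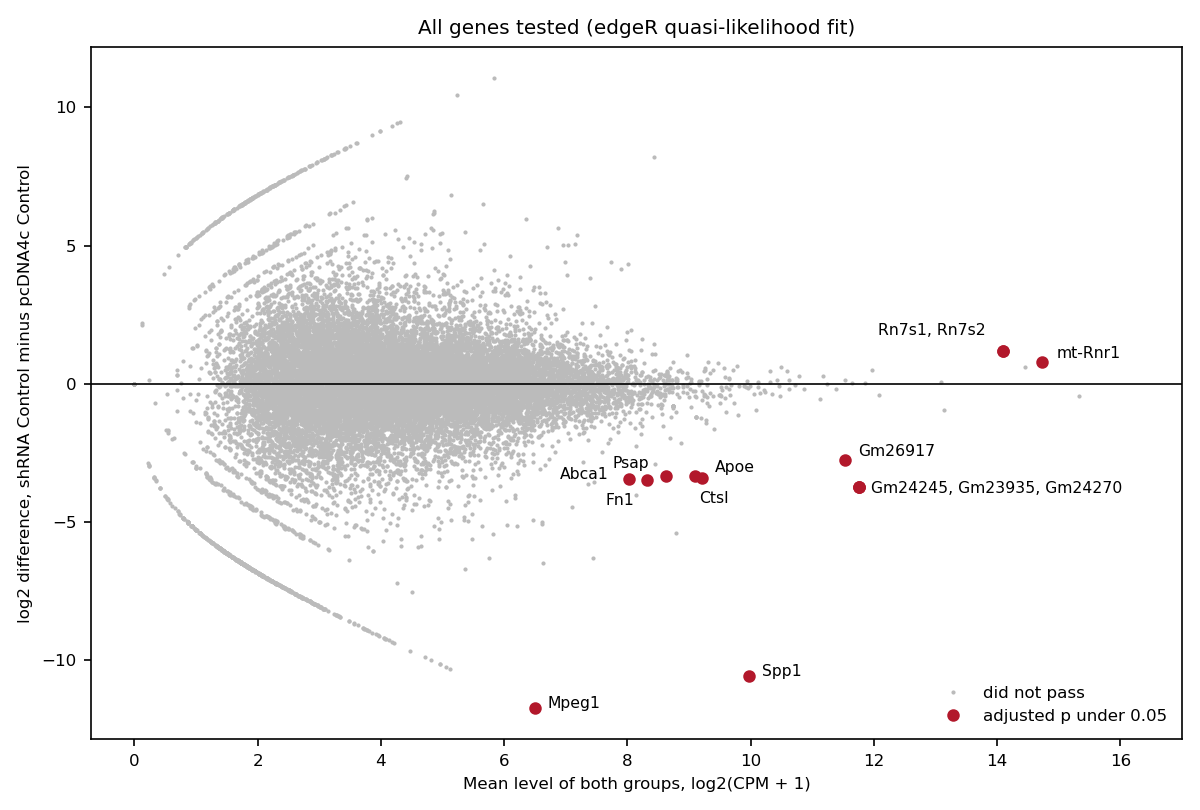
The x axis is the mean level of both groups as log2(CPM + 1) and the y axis the log2 difference, shRNA Control minus pcDNA4c Control, with 1 point per gene tested. The 14 genes that passed are in red; most lie far below 0, and Rn7s1, Rn7s2 and mt-Rnr1 lie above it at the right edge.

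Summed estimated counts were 1856775, 1608926 and 1683277 in shRNA Control and 2017623, 1986142 and 1692419 in pcDNA4c Control. After thinning to 1609099 counts, 20964 ± 980 genes were detected in shRNA Control and 23600 ± 1470 in pcDNA4c Control (SD, n = 3; exact permutation p = 0.1, two-sided, the smallest that 3 against 3 allows; 0.175 adjusted over 14 library measures). The biological coefficient of variation, edgeR's measure of spread between libraries beyond counting error, was 1.19 in shRNA Control and 0.898 in pcDNA4c Control. Across 17061 genes the rank correlation between libraries was 0.49 to 0.494 within shRNA Control, 0.645 to 0.655 within pcDNA4c Control and 0.512 to 0.552 between them. Genes are not independent replicates, and libraries of one group differed more from each other in shRNA Control.

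Genes of engulfing macrophages and of the lysosome made up most of the protein-coding genes that passed, and all 7 were lower in shRNA Control. Levels are in CPM, counts relative to library size, after TMM scaling, which corrects library sizes for composition. In bulk libraries fewer cells of a type and less RNA per cell cannot be told apart. Spp1 (ENSMUSG00000029304, chr5:104435118-104441050) encodes osteopontin, a secreted phosphoprotein of activated macrophages. It was at 3.63, 0 and 0 CPM in the shRNA Control libraries, against 2172, 2168 and 1705 CPM in pcDNA4c Control. All 3 pcDNA4c Control libraries were high and close together, while 2 of the shRNA Control libraries held no read of it. Its log2 difference was -10.6 (SE 1.48, edgeR adjusted p = 0.00386; DESeq2 gave 0.097, the only one of 18 alternative fits in which the call was lost). Mpeg1 (ENSMUSG00000046805, chr19:12460779-12465283) encodes the macrophage pore-forming protein perforin-2. It had no count in shRNA Control and 149, 192 and 194 CPM in pcDNA4c Control, at least 319-fold lower against a floor of 3 counts over the group (edgeR adjusted p = 0.00681).

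Apoe (ENSMUSG00000002985, chr7:19696109-19699188), the lipid carrier of macrophages and glia, was at 116, 135 and 53.9 CPM in shRNA Control, against 1231, 1096 and 926 CPM in pcDNA4c Control. The log2 difference was -3.42 (SE 0.468, edgeR adjusted p = 0.00165). Every shRNA Control library was far under the lowest pcDNA4c Control library. Abca1 (ENSMUSG00000015243, chr4:53030787-53159895), the membrane transporter that loads cholesterol onto apolipoproteins, stood at 57, 24.4 and 47.6 CPM in shRNA Control and 601, 368 and 455 CPM in pcDNA4c Control. Its log2 difference was -3.46 (SE 0.636, edgeR adjusted p = 0.0437). Fn1 (ENSMUSG00000026193, chr1:71585520-71653200), the matrix protein fibronectin, stood at 55, 78.6 and 24.4 CPM in shRNA Control and 665, 588 and 493 CPM in pcDNA4c Control. The log2 difference was -3.47 (SE 0.634, edgeR adjusted p = 0.0437).

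Psap and Ctsl are lysosomal. Psap (ENSMUSG00000004207, chr10:60277627-60302597) encodes prosaposin, the precursor of the saposins that help break down sphingolipids. It was at 57.5, 95.3 and 60.7 CPM in shRNA Control and 715, 810 and 635 CPM in pcDNA4c Control (log2 difference -3.34, SE 0.447, edgeR adjusted p = 0.00137). Ctsl (ENSMUSG00000021477, chr13:64359337-64370890) encodes cathepsin L, a lysosomal cysteine protease. It was at 105, 91.1 and 97 CPM in shRNA Control and 1089, 871 and 1028 CPM in pcDNA4c Control (log2 difference -3.35, SE 0.599, edgeR adjusted p = 0.0368). For both genes every shRNA Control library was far below every pcDNA4c Control library. The calls of Psap, Apoe and Mpeg1 held under all 18 alternative fits. Ctsl lost its call in 7, Abca1 in 9 and Fn1 in 10 of them, among them each fit without 1 of the shRNA Control libraries and those without pcDNA4c Control 1 or 3. Without 1 library, the edgeR adjusted p was 0.0328 to 0.145 for Ctsl, 0.0257 to 0.202 for Abca1 and 0.0544 to 0.218 for Fn1, and the log2 differences stayed between -3.86 and -3.12.

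**Figure D2:**
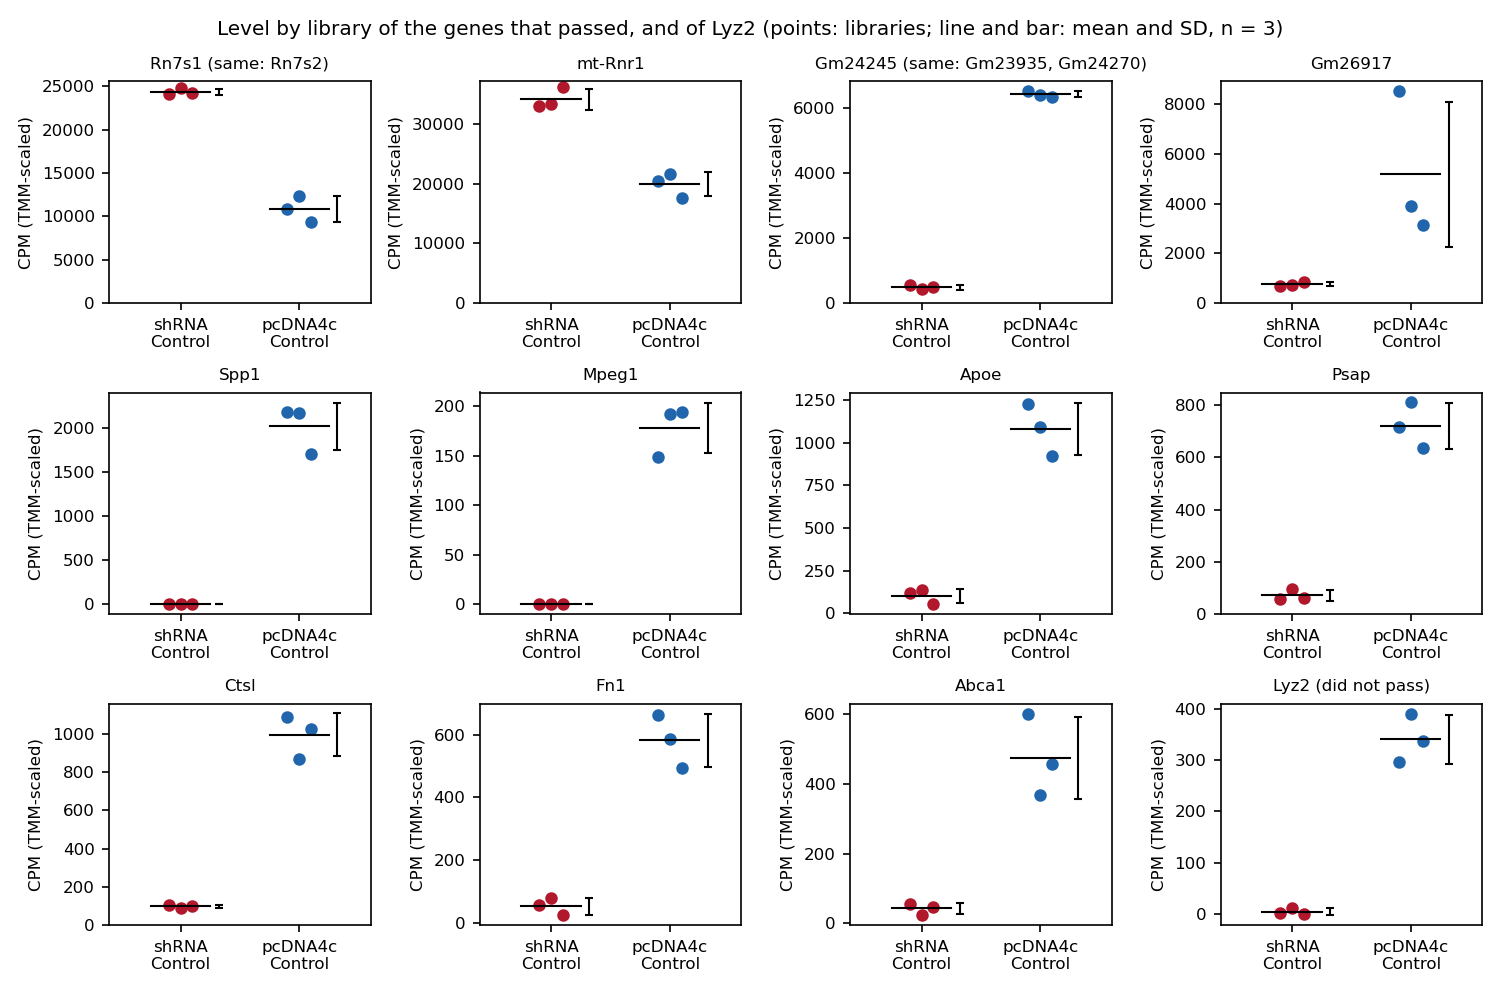
Each panel shows 1 gene, with TMM-scaled CPM on the y axis and the libraries of shRNA Control (left, red) and pcDNA4c Control (right, blue) as points, a line for the mean and a bar for ± 1 SD (n = 3). Rn7s1 and mt-Rnr1 are higher in shRNA Control and the other genes lower, with no overlap in any panel; Lyz2 did not pass.

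The genes next in order of p on the lower side included more of the same kind, without passing. Lyz2, the lysozyme of macrophages (ENSMUSG00000069516, chr10:117277331-117282321), was at 1.04, 11.9 and 0 CPM in shRNA Control and 295, 390 and 337 CPM in pcDNA4c Control (log2 difference -6.3, SE 1.21, edgeR adjusted p = 0.133). It passed in 6 of 18 alternative fits, one of them without shRNA Control 2. Gpnmb, a glycoprotein of phagosomes and melanosomes, averaged 20.4 ± 20.2 CPM in shRNA Control and 858 ± 214 CPM in pcDNA4c Control (SD, n = 3; log2 difference -5.39, edgeR adjusted p = 0.242). Others in this order do not belong to the phagocyte lists: Kirrel, a cell adhesion protein, averaged 21.4 ± 1.69 CPM in shRNA Control and 154 ± 32.9 CPM in pcDNA4c Control. Vapb, a tether protein of the endoplasmic reticulum, averaged 27.7 ± 4.74 and 322 ± 44.9 CPM in the same order. Their edgeR adjusted p values were 0.189 and 0.242.

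Of 26 genes that define macrophages and microglia, 22 were tested, 21 had a lower and 1 a higher estimate in shRNA Control, and 0 passed. The shRNA Control libraries were all below the pcDNA4c Control libraries for 13 of the 22, beside 8.56% of all genes, and the list median was -2.22 on the log2 scale, beside 0 for all genes. The list's summed level was 148, 186 and 305 CPM in shRNA Control and 911, 868 and 817 CPM in pcDNA4c Control. The filter kept genes with enough counts in 3 libraries, which can be those of pcDNA4c Control alone. For members that entered only through that group a lower estimate was given in advance, so these counts of members describe and do not test. The same limit holds for the other lists, in both directions. Itgam, the integrin CD11b, was at 14.5, 6.55 and 42 CPM in shRNA Control and 154, 114 and 112 CPM in pcDNA4c Control. Itgax, the integrin CD11c, was at 1.56, 0 and 17.6 CPM in shRNA Control and 130, 124 and 113 CPM in pcDNA4c Control. Both integrins were low in each shRNA Control library. Cx3cr1, the fractalkine receptor, differed less, with 32.4 ± 7.82 CPM in shRNA Control and 61 ± 12 CPM in pcDNA4c Control (SD, n = 3). Ptprc, the leukocyte antigen CD45, overlapped between the groups, with 16.1 to 55 CPM in shRNA Control and 54.3 to 122 CPM in pcDNA4c Control. Spi1, the gene of the macrophage factor PU.1, and Irf8 also overlapped and were picked after their values were seen. Spi1 averaged 4.92 CPM in shRNA Control and 5.04 CPM in pcDNA4c Control, and Irf8 6.54 and 6.75 CPM in the same order. Both count among the lower estimates, with log2 differences of -0.03 and -0.05. Chosen after their values were seen, Tyrobp, the signalling adaptor of TREM2, and the Fc receptor Fcgr3 had no count in shRNA Control and averaged 24.6 ± 5.92 CPM and 29.3 ± 11.1 CPM in pcDNA4c Control (SD, n = 3). P2ry12, a marker of resting microglia, was too low to be tested, at 0 to 5.11 CPM in shRNA Control and 0 to 6.5 CPM in pcDNA4c Control. Tmem119, another such marker, was uneven in both groups and overlapped, at 18.7, 0 and 0 CPM in shRNA Control and 22.6, 7.5 and 0.554 CPM in pcDNA4c Control.

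Of 22 genes of active, engulfing phagocytes 21 were tested, 18 with a lower and 3 with a higher estimate in shRNA Control. Spp1 and Mpeg1 passed, beside 0.0543% of all genes called lower. In the list 13 lay wholly below pcDNA4c Control (8.56% of all genes) and 1 wholly above it (5.13% of all genes), and the median was -2.62. The summed level was 533, 330 and 391 CPM in shRNA Control and 5060, 4744 and 3728 CPM in pcDNA4c Control. Lpl, the lipoprotein lipase, averaged 107 ± 48.3 CPM in shRNA Control and 327 ± 106 CPM in pcDNA4c Control (SD, n = 3; log2 difference -1.61, edgeR adjusted p = 1.00). Of 16 complement and antigen presentation genes 13 were tested and 0 passed, with 6 wholly below pcDNA4c Control, beside 8.56% of all genes, and a median of -2.22. Ctss, the macrophage protease cathepsin S, was at 0, 0 and 17.6 CPM in shRNA Control and 212, 222 and 128 CPM in pcDNA4c Control. B2m, the light chain of MHC class I, averaged 4.83 ± 4.47 CPM in shRNA Control and 79.7 ± 11.9 CPM in pcDNA4c Control (SD, n = 3). The MHC class I heavy chain H2-D1 overlapped, with 9.85 to 166 CPM in shRNA Control and 124 to 171 CPM in pcDNA4c Control. Of 19 chemokine and cytokine genes 6 had enough counts to be tested and 0 passed.

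Of 36 lysosomal genes 35 were tested, 30 with a lower and 5 with a higher estimate in shRNA Control. Psap and Ctsl passed, beside 0.0543% of all genes called lower. In the list 16 lay wholly below pcDNA4c Control (8.56% of all genes) and 0 above it (5.13% of all genes), and the median was -1.12. The summed level was 1415, 1474 and 1438 CPM in shRNA Control and 5217, 5353 and 4561 CPM in pcDNA4c Control, so the libraries of each group were close to each other. Ctsd, the aspartic protease cathepsin D, was at 46.2, 9.53 and 42 CPM in shRNA Control and 594, 556 and 434 CPM in pcDNA4c Control (log2 difference -4.02, edgeR adjusted p = 0.724). Ctsb, the cysteine protease cathepsin B, averaged 97.3 ± 49.5 CPM in shRNA Control and 467 ± 120 CPM in pcDNA4c Control (SD, n = 3). Of 18 genes of lipid handling and cholesterol efflux 17 were tested, 10 with a lower and 7 with a higher estimate, and the median was -0.33. Apoe and Abca1 passed, beside 0.0543% of all genes called lower. Of these 17, 3 lay wholly below pcDNA4c Control (8.56% of all genes) and 0 above it (5.13% of all genes). The estimates of the lipid list were divided in direction, while most of those of the lysosomal list were negative.

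**Figure D3:**
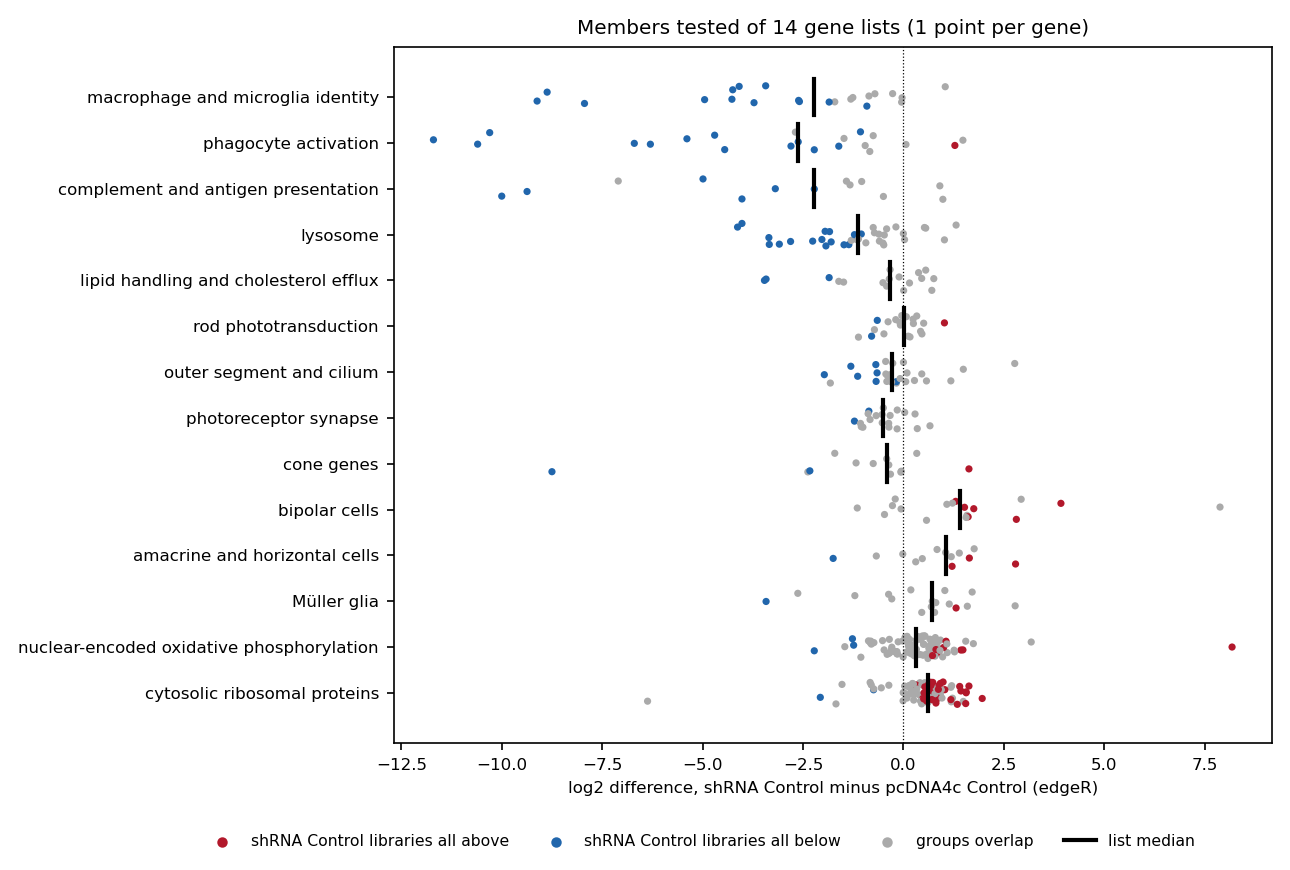
Each row is a gene list and each point a tested member, with the edgeR log2 difference, shRNA Control minus pcDNA4c Control, on the x axis; colours give members whose libraries lie all above (red) or all below (blue) pcDNA4c Control, and black bars are list medians. The macrophage, phagocyte and complement lists centre near -2, the rod phototransduction list near 0, and the bipolar list at 1.41.

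The transcript table gives TPM, transcript abundance per length relative to all transcripts of a library. On that scale protein-coding genes summed to 213000 TPM on average in shRNA Control and 139000 TPM in pcDNA4c Control, a log2 ratio of 0.61, and their CPM gave one of -0.03, so any TPM ratio of such genes carries that shift. Spp1 came almost wholly from Spp1-201, at 1.46, 0 and 0 TPM in shRNA Control and 844, 809 and 663 TPM in pcDNA4c Control. Apoe came mainly from Apoe-202, which averaged 70.7 TPM in shRNA Control and 405 TPM in pcDNA4c Control, and from Apoe-206, which averaged 1.94 and 171 TPM in the same order. Psap differed between its transcripts: Psap-202 was at 0, 15.3 and 3.58 TPM in shRNA Control and 98.8, 117 and 83.6 TPM in pcDNA4c Control. Psap-205 ran the other way, at 13.1, 0.217 and 9.49 TPM in shRNA Control and 0, 0.558 and 0 TPM in pcDNA4c Control. Transcript values are estimates that divide shared reads, and these were not tested.

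Of the 7 protein-coding genes that passed, 6 have a promoter entry in RefSeq, covering 250 bases before to 50 after a transcript start given there. The core AGGAAGT, a sequence that ETS family factors such as the macrophage factor PU.1 bind, was searched on both strands and was in the Spp1 promoter only, 1 of 6, beside 9.35% of 32851 mouse promoters. The E-box CACGTG, which lysosomal gene regulators of the TFEB family bind, was in 2 of 6, Ctsl and Abca1, beside 7.15% of promoters. The Ctsl window, chr13:64370471-64370770 on the minus strand, lies inside the gene, which starts at 64370890 on that strand. The Spp1 promoter is shown because Spp1 has the largest log2 difference among the genes with a read in both groups that passed (RefSeq, GRCm38.p6, chr5:104434861-104435160, plus strand, capitals mark the ETS core).
Spp1 promoter: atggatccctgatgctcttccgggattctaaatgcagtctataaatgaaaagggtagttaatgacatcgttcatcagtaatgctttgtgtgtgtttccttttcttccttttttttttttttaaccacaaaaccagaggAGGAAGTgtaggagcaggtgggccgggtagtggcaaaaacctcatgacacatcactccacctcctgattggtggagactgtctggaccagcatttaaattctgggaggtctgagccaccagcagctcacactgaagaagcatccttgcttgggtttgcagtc
A match describes these letters and does not show binding.

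Noncoding RNAs gave the calls with the smallest p. The 57-base RNA of Gm24245, Gm23935 and Gm24270 was at 559, 416 and 483 CPM for each copy in shRNA Control and 6503, 6404 and 6322 CPM in pcDNA4c Control (log2 difference -3.72, SE 0.325, edgeR adjusted p = 4.04e-06). These 3 predicted genes fall outside the naming rule and were chosen after their values were seen. Their class is that of the annotation, and whether their reads came from a microRNA was not tested. The 3 copies summed to 1677, 1247 and 1448 CPM in shRNA Control and 19508, 19212 and 18966 CPM in pcDNA4c Control. They held most of the counts of the annotated miRNA class in pcDNA4c Control, and that class had 0.344% ± 0.0129 of the counts in shRNA Control and 2.2% ± 0.0687 in pcDNA4c Control (SD, n = 3; exact permutation p = 0.1, the smallest possible). Gm26917 (ENSMUSG00000097971, chr17:39843013-39846341), annotated as a long noncoding RNA, was at 690, 735 and 865 CPM in shRNA Control and 8519, 3920 and 3120 CPM in pcDNA4c Control (log2 difference -2.76, SE 0.363, edgeR adjusted p = 0.0012; limma voom gave 0.229). Its pcDNA4c Control libraries were uneven, with the first more than the sum of the others. An alternative fit left Gm26917 out together with the mitochondrial genes, treating it as a ribosomal RNA gene. Whether its reads came from ribosomal RNA was not tested.

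The 7SL RNA was higher in shRNA Control than in pcDNA4c Control. Each of Rn7s1 and Rn7s2 was at 24140, 24780 and 24260 CPM in shRNA Control, against 10800, 12310 and 9290 CPM in pcDNA4c Control (log2 difference 1.18, SE 0.129, edgeR adjusted p = 1.01e-04; limma voom gave a log2 difference of 1.16 with an adjusted p of 0.999). The 3 shRNA Control libraries lay within a narrow range, well above the highest pcDNA4c Control library. The 7SK RNA gene Rn7sk, whose RNA holds back the elongation kinase P-TEFb, was next in order of p without passing, at 27170 ± 521 CPM in shRNA Control and 17720 ± 2414 CPM in pcDNA4c Control (SD, n = 3; log2 difference 0.62, edgeR adjusted p = 0.0881). It passed in 8 of 17 alternative fits. Not all RNA polymerase III products were higher: Rmrp, the RNA of RNase MRP, chosen after its values were seen, averaged 653 ± 10.1 CPM in shRNA Control and 1046 ± 69.5 CPM in pcDNA4c Control without passing (log2 difference -0.68, edgeR adjusted p = 1.00).

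The mitochondrial ribosomal RNAs differed in direction. The 12S RNA mt-Rnr1 (ENSMUSG00000064337, mitochondrial genome, 70 to 1024) was higher in shRNA Control than in pcDNA4c Control. It had 32990, 33310 and 36210 CPM in shRNA Control and 20520, 21580 and 17630 CPM in pcDNA4c Control (log2 difference 0.78, SE 0.124, edgeR adjusted p = 0.00962; DESeq2 gave 0.228 and limma voom 0.999). The 16S RNA mt-Rnr2, chosen after its values were seen, had 35990, 33620 and 34530 CPM in shRNA Control and 48590, 51640 and 41780 CPM in pcDNA4c Control without passing (log2 difference -0.45, SE 0.129, edgeR adjusted p = 0.847). The groups did not overlap for either RNA. Both RNAs together held 7.19% ± 0.212 of counts in shRNA Control and 6.89% ± 0.522 in pcDNA4c Control (SD, n = 3; exact permutation p = 0.4). Among long noncoding RNAs, Malat1 was at 6560, 6924 and 4940 CPM in shRNA Control and 13950, 13760 and 7988 CPM in pcDNA4c Control without passing (log2 difference -0.95, edgeR adjusted p = 0.724), also chosen after its values were seen.

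Some classes of RNA held different shares of the counts without overlap between the groups, while long noncoding RNA genes held 9.33% ± 0.457 in shRNA Control and 9.4% ± 0.581 in pcDNA4c Control (SD, n = 3; exact permutation p = 0.9). Counts from genes of the miscellaneous RNA class, which holds 7SL and 7SK RNA, were 8.09% ± 0.117 in shRNA Control and 4.22% ± 0.431 in pcDNA4c Control (SD, n = 3). Genes annotated as nuclear ribosomal RNA, which leave out Gm26917, held 0.377% ± 0.0838 of counts in shRNA Control and 0.821% ± 0.0218 in pcDNA4c Control. Small nuclear RNA genes held 0.464% ± 0.0458 and 0.925% ± 0.0582 in the same order (SD, n = 3). Each of these 3 shares gave an exact permutation p of 0.1, the smallest possible, and 0.175 adjusted over 14 measures. The part of these shares in the results for single genes was not tested.

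The rod identity of the libraries was checked against rod markers, which were present in both groups. Nrl, the transcription factor that fixes rod fate, was at 302, 356 and 357 CPM in shRNA Control and 467, 395 and 193 CPM in pcDNA4c Control. Its log2 difference was -0.06 (SE 0.578) and changed sign under 9 of the 18 alternative fits, so no direction can be given. Crx, the homeobox factor of photoreceptors, averaged 624 ± 92.9 CPM in shRNA Control and 819 ± 35.1 CPM in pcDNA4c Control, and Nr2e3, the nuclear receptor that keeps cone genes low in rods, 564 ± 251 and 769 ± 18.9 CPM in the same order (SD, n = 3). Gnat1, rod transducin alpha, averaged 97.1 ± 14.1 CPM in shRNA Control and 81.7 ± 32.9 CPM in pcDNA4c Control. None of these 4 passed (edgeR adjusted p = 1.00 for each). Csnk2a1, the gene targeted in the other groups, was at 66.9, 57.2 and 8.51 CPM in shRNA Control and 86.6, 25 and 28.3 CPM in pcDNA4c Control (log2 difference -0.08, SE 0.87, edgeR adjusted p = 1.00).

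Of 21 rod phototransduction genes 20 were tested, 10 with a higher and 10 with a lower estimate in shRNA Control, and 0 passed. Their median was 0.01, with a change of sign under 5 of 18 alternative fits, and their summed level was 6725 to 8961 CPM in shRNA Control and 6381 to 8101 CPM in pcDNA4c Control. Gnb1, the beta subunit of transducin, averaged 662 ± 192 CPM in shRNA Control and 591 ± 11.9 CPM in pcDNA4c Control (SD, n = 3; log2 difference 0.16, SE 0.35). Of 27 genes of the outer segment and cilium, 19 had a lower and 8 a higher estimate and 0 passed. Of these, 7 lay wholly below pcDNA4c Control, beside 8.56% of all genes. Rpgrip1, a scaffold of the connecting cilium, averaged 552 ± 199 CPM in shRNA Control and 1219 ± 200.3 CPM in pcDNA4c Control (SD, n = 3; log2 difference -1.14, SE 0.486, edgeR adjusted p = 1.00). Rp1, the axonemal protein of the outer segment, averaged 1482 ± 185 and 1675 ± 58.3 CPM in the same order. The summed level of the outer segment list was 6571 to 8621 CPM in shRNA Control and 9439 to 10790 CPM in pcDNA4c Control, a log2 ratio of -0.48. On the TPM scale the ratio was 0.17, which is below the 0.61 of all protein-coding genes. The 20 synapse genes of photoreceptors had a median of -0.52 and the 13 tested cone genes one of -0.42, with 0 passing in either list. Their summed levels had log2 ratios of -0.33 and -0.48. On the TPM scale the synapse list had 0.17, below the 0.61 of all protein-coding genes, and the cone list 0.86, above it.

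Genes of inner retinal neurons tended the other way, though 0 of them passed. Bipolar cells are the interneurons that receive the rod signal. Of 18 bipolar genes, all tested, 13 had a higher and 5 a lower estimate in shRNA Control, and 6 lay wholly above pcDNA4c Control, beside 5.13% of all genes. The median was 1.41, and the summed level was 1008, 1364 and 825 CPM in shRNA Control and 455, 608 and 674 CPM in pcDNA4c Control. Chosen after their values were seen, Cabp5, a calcium-binding protein of bipolar cells, was at 68.4, 218 and 70.9 CPM in shRNA Control and 8.36, 23.5 and 18.8 CPM in pcDNA4c Control (log2 difference 2.81, SE 0.817, edgeR adjusted p = 0.889). Lhx4, a LIM homeobox factor, averaged 59 ± 23 CPM in shRNA Control and 3.84 ± 3.8 CPM in pcDNA4c Control (SD, n = 3; log2 difference 3.92, edgeR adjusted p = 1.00), and Isl1, another LIM homeobox factor, 60.2 ± 24.5 and 17.9 ± 2.91 CPM in the same order. Otx2, shared with photoreceptors, overlapped at 133 to 232 CPM in shRNA Control and 192 to 253 CPM in pcDNA4c Control, as did Prkca and Gnao1, the kinase and G protein alpha subunit of the ON pathway.

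Prox1, the homeobox factor of horizontal, AII amacrine and some bipolar cells (ENSMUSG00000010175, chr1:190118035-190170714), came closest to passing on the higher side among protein-coding genes. It was at 102, 221 and 70.3 CPM in shRNA Control and 14.3, 23.5 and 18.8 CPM in pcDNA4c Control (log2 difference 2.79, SE 0.595, edgeR adjusted p = 0.17). Of 17 amacrine and horizontal cell genes 13 were tested, 10 with a higher and 3 with a lower estimate, 3 wholly above and 1 wholly below, beside 5.13% and 8.56% of all genes, with a median of 1.05. Pax6, the eye-field and amacrine factor, averaged 123 ± 108 CPM in shRNA Control and 59.3 ± 23.6 CPM in pcDNA4c Control, and Slc6a9, the glycine transporter, 21.8 ± 7.75 and 73.8 ± 26.6 CPM in the same order (SD, n = 3). The defining markers Th, Calb2, Slc32a1 and Ptf1a were too low to be tested. Müller glia genes, 17 tested, had a median of 0.72, while their summed level was lower in shRNA Control (log2 ratio -0.89). The list includes Apoe, which held most of that sum in pcDNA4c Control. Clu, the secreted chaperone clusterin, averaged 165 ± 86.3 CPM in shRNA Control and 94.2 ± 44.4 CPM in pcDNA4c Control, and Vim, the filament protein vimentin, 49.8 ± 33.3 and 115 ± 50.1 CPM in the same order (SD, n = 3). The part of other retinal cells in the results was not tested.

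Further protein-coding genes next by p on the higher side were uneven within shRNA Control. Timm17a, a subunit of the inner mitochondrial membrane translocase, was at 81.9, 31 and 431 CPM in shRNA Control and 10.8 to 28.8 CPM in pcDNA4c Control. Chd5, a neuronal chromatin remodeller, was at 790, 26.8 and 29.5 CPM in shRNA Control and 1.66 to 12 CPM in pcDNA4c Control. In each, 1 library held most of the shRNA Control level, and the edgeR adjusted p was 0.575 for both.

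Most ribosomal protein genes had small positive estimates, and none passed. Of 86 cytosolic ribosomal protein genes 84 were tested, 72 with a higher and 12 with a lower estimate in shRNA Control, and 0 passed. The shRNA Control libraries lay wholly above for 32 and wholly below for 2, beside 5.13% and 8.56% of all genes, and the median was 0.6. The summed level was 10440, 9425 and 10030 CPM in shRNA Control and 6721, 7122 and 5852 CPM in pcDNA4c Control. Rps3, of the small subunit, averaged 730 ± 110 CPM in shRNA Control and 489 ± 75.2 CPM in pcDNA4c Control (SD, n = 3; log2 difference 0.58, SE 0.32, edgeR adjusted p = 1.00). Ribosomal protein genes have many near-identical processed pseudogenes, so single values are uncertain. Of 96 nuclear-encoded genes of oxidative phosphorylation 90 were tested, 63 with a higher and 27 with a lower estimate, 8 wholly above and 3 wholly below, beside 5.13% and 8.56% of all genes, with a median of 0.32 and 0 passing. The 12 tested protein genes of the mitochondrial genome had a median of 0.21, 0 passed, and mt-Cytb, cytochrome b, averaged 2549 ± 269 CPM in shRNA Control and 2084 ± 356 CPM in pcDNA4c Control.

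**Figure D4:**
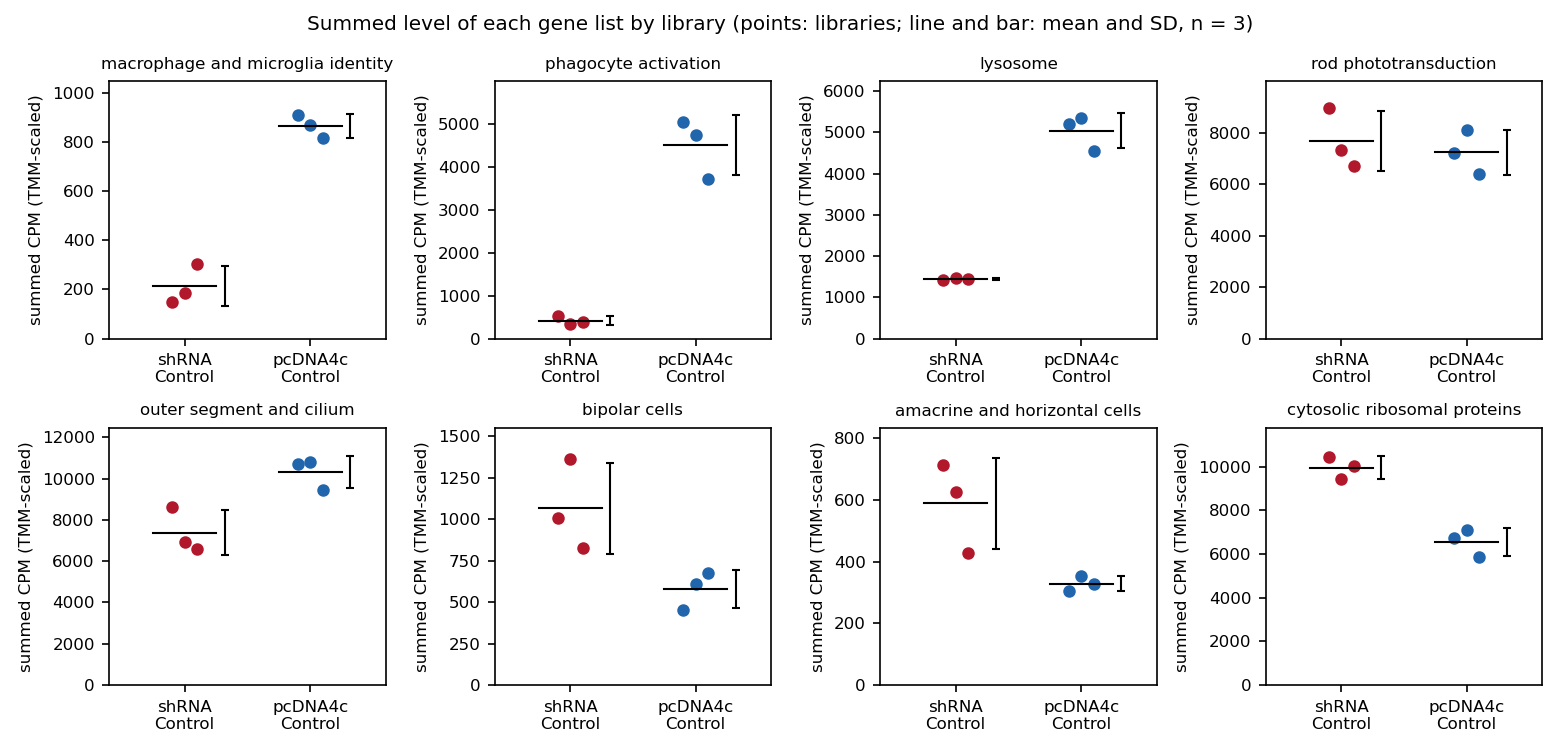
Each panel shows the summed TMM-scaled CPM of a gene list for the libraries of shRNA Control (left, red) and pcDNA4c Control (right, blue), with a line for the mean and a bar for ± 1 SD (n = 3). The macrophage, phagocyte, lysosome and outer segment sums are lower in every shRNA Control library, the bipolar, amacrine and ribosomal sums are higher, and the rod phototransduction sums overlap. On the TPM scale the outer segment ratio turned positive but was below that of all protein-coding genes.

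Genes that answer to foreign RNA or to cell stress showed no call. Only 0.0691% of all genes were called, so the lack of a call in lists of this size says little. Of 28 interferon response and RNA sensing genes 20 were tested, with 9 higher and 11 lower estimates and a median of -0.05, which changed sign under 3 alternative fits. In this list 2 lay wholly above and 4 wholly below pcDNA4c Control, beside 5.13% and 8.56% of all genes. Eif2ak2, the kinase PKR that senses double-stranded RNA, was at 217, 231 and 225 CPM in shRNA Control and 64, 161 and 160 CPM in pcDNA4c Control without passing (log2 difference 0.81, SE 0.599, edgeR adjusted p = 1.00). Of 18 genes that process or act with small RNAs 17 were tested, 6 higher and 11 lower, with a median of -0.36. Of these, 1 lay wholly above and 3 wholly below pcDNA4c Control, beside the same shares of all genes. Tnrc6a, the Argonaute partner GW182, averaged 44.3 ± 18.3 CPM in shRNA Control and 188 ± 95.9 CPM in pcDNA4c Control (SD, n = 3; log2 difference -2.08, SE 0.596, edgeR adjusted p = 0.836). The medians were -0.4 for the stress and unfolded protein response, -0.3 for immediate early genes and -0.03 for p53 targets, with 0 passing in each. The same holds for progenitors and cell cycle at -0.05, pigment epithelium at -0.2, vessels, astrocytes and blood at -0.16, and ganglion cells at 0.23. The last 4 medians and that of the p53 targets changed sign under at least 1 alternative fit.

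Across the 4 groups of the series, Spp1, Mpeg1, Psap, Ctsl and Fn1 were low in both Csnk2a1 groups as in shRNA Control. Other genes differed in their order. Spp1 was at 0, 7.69 and 0 CPM in shRNA mCsnk2a1, at 0 in all pcDNA4c mCsnk2a1 libraries, 1.21 ± 2.1 CPM in shRNA Control and 2015 ± 268 CPM in pcDNA4c Control. Psap was at 95.9 to 106 CPM in shRNA mCsnk2a1, 70.9 to 94 CPM in pcDNA4c mCsnk2a1, 57.5 to 95.3 CPM in shRNA Control and 635 to 810 CPM in pcDNA4c Control. Apoe was at 178 to 412 CPM in shRNA mCsnk2a1, 75.2 to 119 CPM in pcDNA4c mCsnk2a1, 53.9 to 135 CPM in shRNA Control and 926 to 1231 CPM in pcDNA4c Control, so shRNA mCsnk2a1 lay above shRNA Control and below pcDNA4c Control. B2m, chosen after its values in these groups were seen, was at 26.3 to 103 CPM in shRNA mCsnk2a1 and overlapped pcDNA4c Control, at 67 to 90.5 CPM. Abca1 was at 46.7 to 87.1 CPM in shRNA mCsnk2a1, 154 to 972 CPM in pcDNA4c mCsnk2a1, 24.4 to 57 CPM in shRNA Control and 368 to 601 CPM in pcDNA4c Control. Mpeg1 was at 0 to 0.357 CPM in shRNA mCsnk2a1 and at 0 in pcDNA4c mCsnk2a1. Ctsl was at 39.1 to 92 and 7.44 to 63 CPM in the same order, and Fn1 at 44.2 to 214 and 65.5 to 106 CPM. Gm26917 was at 739 to 1460 and 662 to 1160 CPM in that order. The pcDNA4c Control libraries thus stood alone for Spp1, Mpeg1, Psap, Apoe, Ctsl, Fn1 and Gm26917. They overlapped with pcDNA4c mCsnk2a1 for Abca1. Each copy of the 57-base RNA was at 580 to 1470 CPM in shRNA mCsnk2a1, 1978 to 3486 CPM in pcDNA4c mCsnk2a1, 416 to 559 CPM in shRNA Control and 6322 to 6503 CPM in pcDNA4c Control. Both shRNA groups were thus below both pcDNA4c groups for this RNA. Rn7s1 was at 31500 to 36630 CPM in shRNA mCsnk2a1, 20770 to 28580 CPM in pcDNA4c mCsnk2a1, 24140 to 24780 CPM in shRNA Control and 9290 to 12310 CPM in pcDNA4c Control. Prox1 was at 170 to 399 CPM in shRNA mCsnk2a1, 146 to 420 CPM in pcDNA4c mCsnk2a1, 70.3 to 221 CPM in shRNA Control and 14.3 to 23.5 CPM in pcDNA4c Control. These values describe the groups and were not tested here.

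**Figure D5:**
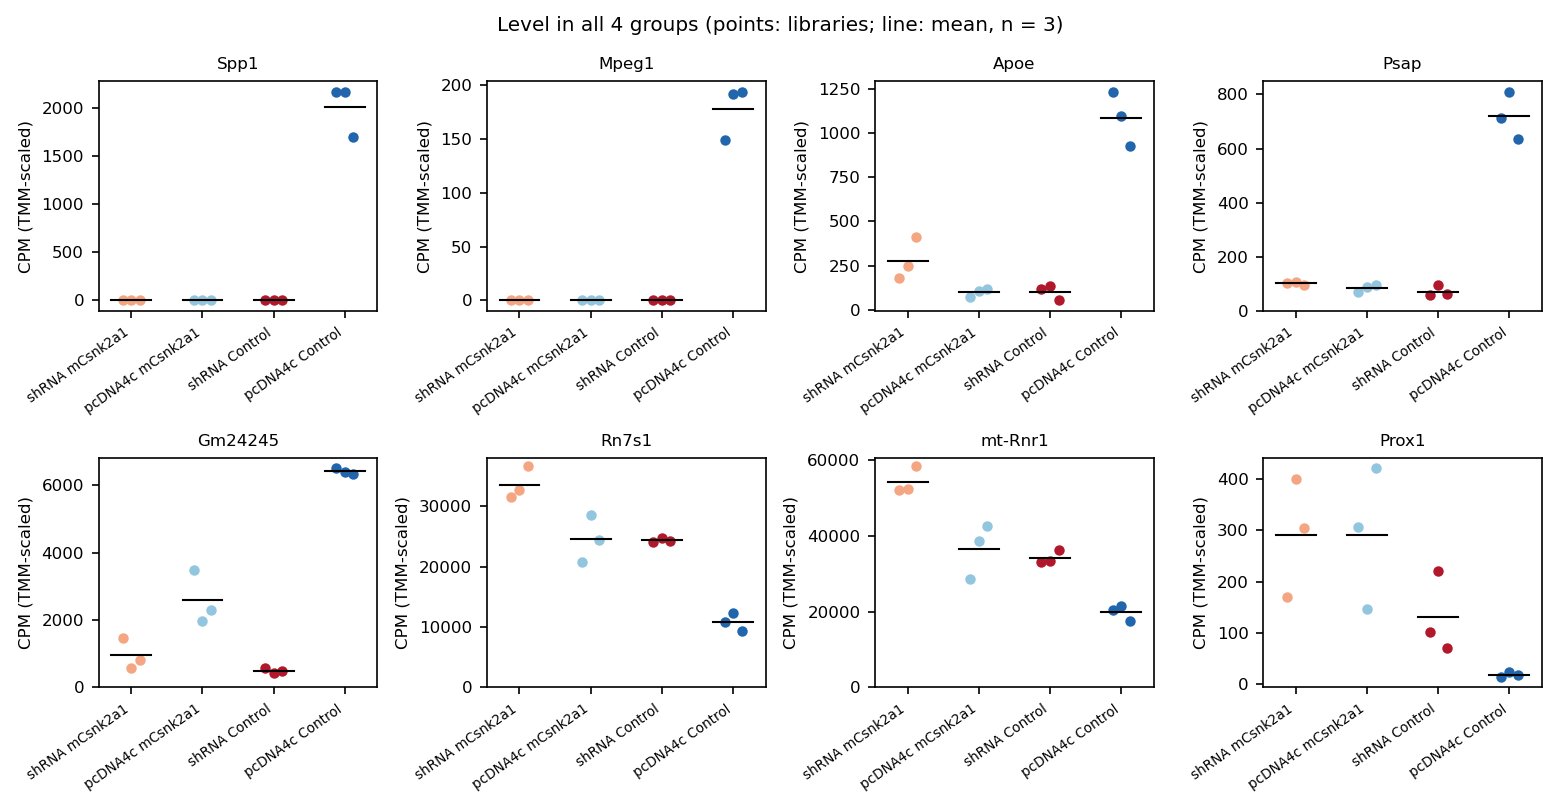
Each panel shows 1 gene with TMM-scaled CPM on the y axis and the 4 groups on the x axis, pcDNA4c Control last; points are libraries and lines are means (n = 3 per group). Spp1, Mpeg1 and Psap are high in pcDNA4c Control only, the RNA of Gm24245 is higher in both pcDNA4c groups than in either shRNA group, and Rn7s1, mt-Rnr1 and Prox1 are lowest in pcDNA4c Control.

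Each control construct was used in 1 group, so the construct and anything else that set the groups apart, such as the day, the animals or the picking of cells, cannot be told apart.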

How the data were processed

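Values deposited by the authors for the 52962 genes of the gene table are estimated counts, not whole numbers, in 12 libraries. Tools named by the submitters' processing notes are kallisto 0.45.0 and edgeR 3.28, with the build mm10 and no settings. The deposited transcript table holds TPM values, as its column sums show, although its title calls them raw counts. The third deposited table, a scaled signal in CPM units, was used for 1 alternative and covers 11 libraries. GENCODE M21 (GRCm38) held 98.0% of the genes, 99.5% of them at the same position.

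Estimated counts were rounded, filtered with filterByExpr (minimum count 10), scaled by TMM and fitted with edgeR 4.0.16 (R 4.3.3, quasi-likelihood test) over all 12 libraries and 4 groups, with Benjamini-Hochberg adjustment over 20267 genes and a threshold of 0.05. Levels were computed as TMM-scaled CPM and are given per library or as mean ± SD. The SE is the size of the log2 difference divided by the square root of the F statistic. A group at 0 was given a floor of 3 counts, 0.559 CPM in shRNA Control and 0.514 CPM in pcDNA4c Control, and the bounds this gives hold for counting error alone: without molecular identifiers, PCR duplicates count as reads. Exact permutation tests of library measures were two-sided. The fit was also run on data simulated with its own dispersions, with changes only in genes above the median level. That run cannot show how the fit does where real counts depart from its model.

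The 28 gene lists and the genes named were chosen with earlier results of these data known. The rule named genes that passed, had groups that did not overlap and were not predicted genes or pseudogenes, then the 5 next by p in each direction, up to 4 genes of a list (those that passed, then those most abundant), and, in every case, Csnk2a1, Spp1, Apoe, Lyz2, Mpeg1, Nrl, Crx, Nr2e3 and Gnat1. A few genes that the rule names, and 1 sequence, are not reported here. Genes outside it are marked where they appear, except P2ry12, Tmem119, Th, Calb2, Slc32a1, Ptf1a, Xist and the Y-linked genes, which it does not name either. Alternatives changed the scaling, filter, tool (DESeq2 1.42.0, limma 3.58.1 with voom or on deposited CPM with a pseudocount of 1), libraries fitted and replicate block, and left out each library in turn. Restricting the fit to nuclear protein-coding genes was chosen after seeing the data.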

Additional observations from a re-analysis of the deposited data

How the results depend on the processing

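The fit passed 14 genes, 3 higher and 11 lower in shRNA Control. DESeq2 passed 69 (22 higher and 47 lower), no filter on low counts 71 (26 and 45), limma on the deposited CPM 26 (4 and 22), and a fit of nuclear protein-coding genes 4 (0 and 4). The 6 control libraries alone gave 21 (5 and 16) and limma voom 12 (0 and 12). With the replicate number as a block, the 6 control libraries gave 25 (6 and 19) and the joint fit 18. Same-numbered libraries did not deviate together (correlations 0.0023, 0.0104 and 0.00407). With libraries that vary this much such correlations can be low even with a pairing, so they cannot decide whether the numbers pair libraries. Leaving out 1 library gave 11 to 15 genes, 3 to 4 higher and 8 to 11 lower. With median-of-ratios size factors (DESeq2 and RLE) the median of all genes was 0.13, with voom -0.22 and on the deposited CPM -0.15.

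Nrl turned positive with a filter of 50 counts in 3 libraries (0.0209), DESeq2 and RLE (0.0747 each), deposited CPM (0.0535), voom (0.00422) and the block in 6 libraries (0.0525), and Csnk2a1 with DESeq2 and RLE (0.0461 each). Leaving out 1 library gave log2 differences of -0.336 to 0.205 for Nrl, -0.505 to 0.73 for Csnk2a1, -0.0556 to 0.444 for Gnat1, -0.0929 to 0.331 for Gnb1, -0.375 to 0.00312 for Otx2, -0.0163 to 2.89 for Prkca and -0.239 to 1.18 for Gnao1. The causes were not tested. Rn7s1, Rn7s2 and Gm26917 lost their calls with voom, Spp1 with DESeq2 and mt-Rnr1 with both. With 3 libraries a group and a biological coefficient of variation of 1.27, genes of low count were measured with little precision.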

Other observations

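Genes of both sexes were read in both control groups. Xist, the RNA of the inactive X chromosome, was at 436, 287 and 327 CPM in shRNA Control and 899, 911 and 638 CPM in pcDNA4c Control (log2 difference -1.22, edgeR adjusted p = 1.00). The Y-linked translation factor gene Eif2s3y was at 0, 2.98 and 0 CPM in shRNA Control and 15.7, 55.5 and 34.9 CPM in pcDNA4c Control, and the Y-linked demethylase gene Kdm5d at 29, 86.9 and 72.6 CPM in shRNA Control and 111, 95.5 and 107 CPM in pcDNA4c Control. For these 3 genes every pcDNA4c Control library was above every shRNA Control library, as it was for the Y-linked gene Uty, at 0.518 to 42 CPM in shRNA Control and 48.2 to 94.5 CPM in pcDNA4c Control. The Y-linked helicase gene Ddx3y overlapped, at 0, 0.595 and 18.1 CPM in shRNA Control and 10.8, 25.5 and 19.9 CPM in pcDNA4c Control. None of these 5 genes passed.

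Of the CK2 subunits, the alternative catalytic subunit gene Csnk2a2 was at 6.74, 16.1 and 10.8 CPM in shRNA Control and 138, 31 and 17.7 CPM in pcDNA4c Control (log2 difference -2.47, SE 1.32, edgeR adjusted p = 1.00), and the regulatory subunit gene Csnk2b at 76.7, 50.6 and 97.6 CPM in shRNA Control and 35.4, 33 and 42.7 CPM in pcDNA4c Control (log2 difference 1.02, SE 0.702, edgeR adjusted p = 1.00). The groups did not overlap for either gene.

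Mef2c, a transcription factor of microglia and neurons, chosen after its values were seen, was at 6.22, 2.98 and 7.38 CPM in shRNA Control and 287, 83.5 and 137 CPM in pcDNA4c Control (log2 difference -4.92, SE 1.39, edgeR adjusted p = 0.819). It passed in 4 of 18 alternative fits. Among the phagocyte and complement genes, chosen in the same way, Cd36, a scavenger receptor, had no count in shRNA Control and 85.6, 52.5 and 64.8 CPM in pcDNA4c Control, at least 121-fold lower (edgeR adjusted p = 0.408). C1qa, a chain of the first complement component, had no count in shRNA Control and 31, 69.5 and 63.2 CPM in pcDNA4c Control, at least 97.7-fold lower (edgeR adjusted p = 0.724).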
